A study of Homo sapiens with 10 samples.

Results

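The ATF4 amino acid response genes examined here are 34 genes of amino acid synthesis, one-carbon metabolism, amino acid transport and partnership with the transcription factor ATF4. They were taken by symbol from a fixed list, which was chosen with earlier results of these data known. All 34 had a row among the 57736 gene IDs of the count table and passed the filter on low counts, which kept 16760 genes. The cells were IMR90, a widely used human fibroblast line from fetal lung, and each of 5 groups held 2 samples. Control cells received a control retrovirus and a control siRNA. Senescent control cells received a retrovirus expressing RAS, whose activity makes these fibroblasts stop dividing for good, and the control siRNA. The METTL3 knockout, as the titles call it, is RAS cells with an siRNA against METTL3, the methyltransferase behind the m6A mark of RNA. The wild type knock-in and the mutant knock-in are RAS cells with the same siRNA plus a lentivirus carrying METTL3. siRNA was given from day 4 after the retrovirus and cells were harvested 48 hours after the siRNA and lentivirus steps. The protocol text names METTL14 as the targeted gene, whereas titles and column names give METTL3. The labels name neither the METTL3 mutation nor an empty lentivirus for senescent control, and the knockout columns alone carry the word vec. Any effect of the lentivirus itself cannot be told apart from that of METTL3 in groups that differ in it.

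ATF4 sits at the end of the integrated stress response. Kinases that sense amino acid shortage, unfolded protein, double-stranded RNA or haem shortage phosphorylate the initiation factor eIF2, which slows general protein synthesis and favours translation of the ATF4 message. ATF4 then binds with C/EBP family partners to C/EBP-ATF response elements and switches on genes that take up and make amino acids, charge tRNA and feed one-carbon units from serine into nucleotides and glutathione. Because ATF4 is controlled mostly at translation, its RNA level is not a measure of its protein, which was not measured here.

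Total counts ran from 16293975 to 23570266 per sample. METTL3 stood at 72.7 and 81.4 CPM (counts scaled to a common library total) in control, 47.3 and 57.3 in senescent control and 23.2 and 28.9 in the knockout, which fell to 0.498 times the senescent control level (adjusted p = 8.72e-04). It reached 58385 and 58125 CPM in the wild type and 114107 and 147774 CPM in the mutant knock-in, where it took 5.87% and 5.86% and then 11.3% and 14.2% of all counts. The mutant knock-in therefore differs from the wild type knock-in in METTL3 amount as well as in the mutation. METTL14, the gene named in the protocol text, was neither lowered in the knockout nor raised to such levels in the knock-ins. It stood at 25.6 and 26.0 CPM in senescent control, 29.1 and 29.9 in the knockout, 30.3 and 31.1 in the wild type and 28.9 and 29.5 in the mutant knock-in. HRAS, the RAS family gene measured as a check, stood at 14.8 and 14.6 CPM in control, 61.0 and 61.3 in senescent control, 40.8 and 39.5 in the knockout, 48.7 and 43.4 in the wild type and 29.8 and 23.7 in the mutant knock-in. Counts of the 2 control samples differed most from each other (mean chi-square 34.4 per gene), and those of the other pairs less (5.07 to 7.16). Of 8 fibroblast markers all 8 were measured, and their summed CPM was 17841 and 14541 in control, 9487 to 10556 in senescent control and knockout, 7785 and 8273 in the wild type and 5784 and 5108 in the mutant knock-in. Of the 8, 4 rose and 0 fell in the knockout against senescent control (7.17% and 8.62% of all genes tested). Against the knockout, 1 rose and 5 fell in the wild type (18.5% and 14.8% of all genes). In the mutant, 1 rose and 7 fell against the knockout (24.1% and 24.3%). The marker that rose in both knock-ins was LUM, at 29.1 and 33.8 CPM in the knockout, 77.8 and 73.4 in the wild type and 53.7 and 54.2 in the mutant. VIM, at 5556 and 5686 CPM in senescent control and 4655 and 4573 in the knockout, did not pass there (adjusted p = 0.0514). Of 5 leukocyte markers, CD3E was at 0 in every sample and the sum was 66.8 to 79.5 CPM in the first 3 groups and 157 to 177 in the knock-ins, nearly all of it CD68 (77.0 and 75.9 CPM in the knockout, 152 and 160.3 in the wild type and 164 and 168 in the mutant knock-in). PTPRC, the pan-leukocyte marker, stood at 1.46 and 0.933 CPM in the wild type and 2.92 and 5.89 in the mutant knock-in and at 0.548 CPM or less elsewhere. Summed epithelial markers ran from 7.3 to 32.0 CPM, with CDH1 at 0.507 CPM or less, and endothelial ones from 0.6 to 4.4 CPM, with CDH5 at 0.0633 CPM or less. The part of these markers in the results below was not tested. In bulk RNA, fewer cells of a kind and less RNA per cell cannot be told apart. Nothing in the labels says that replicates came from separate cultures. A p-value here therefore reflects only how far these samples scatter, which may be technical.

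The C/EBP-ATF response element core, TGATGNAA, was looked for on both strands of RefSeq promoter windows (GRCh38.p14, 250 bases before to 50 after each listed start), since ATF4 is known to act through it. Of 26 listed genes in that table, 9 held a match (34.6%), against 4.46% of all 27305 genes in it. A gene counted if the window of any of its starts held a match, so genes with more starts had more chances. Of all 35116 windows, 3.62% held a match. The shares were not adjusted for the number of starts, and the background was not limited to the genes tested. The list was chosen as ATF4 response genes, and the part of that choice in the higher share was not tested. NUPR1, SLC7A11, SHMT2, PYCR1, PSPH, ALDH1L2, EIF4EBP1 and GPT2 had no entry. The 9 matches are shown 5′ to 3′ on the gene's strand, with the 8 matched bases in capitals. Where the capitals begin with TT, the element lies on the opposite strand. A match describes letters and is no measured binding site.
ASNS, chr7:97872439-97872506, minus strand: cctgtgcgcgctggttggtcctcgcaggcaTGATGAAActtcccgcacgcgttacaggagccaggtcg
CHAC1, chr15:40953232-40953299, plus strand: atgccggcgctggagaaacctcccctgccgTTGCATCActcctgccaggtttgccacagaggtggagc
CEBPG, chr19:33374060-33374089, plus strand: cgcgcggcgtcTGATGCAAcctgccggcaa
JDP2, chr14:75427995-75428024, plus strand: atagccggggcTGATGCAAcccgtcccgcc
MTHFD1L, chr6:150866346-150866375, plus strand: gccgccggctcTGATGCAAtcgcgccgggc
SLC7A1, chr13:29595663-29595692, minus strand: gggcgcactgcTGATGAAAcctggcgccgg
SLC3A2, chr11:62881725-62881748, plus strand: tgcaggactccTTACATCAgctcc
SLC1A4, chr2:64989381-64989410, plus strand: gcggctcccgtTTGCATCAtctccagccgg
SLC1A5, chr19:46784893-46784922, minus strand: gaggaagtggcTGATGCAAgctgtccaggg
Counting the base of the listed start nearest the match as 0, the matches began at -209 in CHAC1, -97 in SLC1A5, -68 in ASNS, -42 in CEBPG, -16 in JDP2 and -7 in SLC1A4, and after the start at 7 in SLC7A1, 24 in MTHFD1L and 37 in SLC3A2. The match lay in the window of 1 of 2 listed starts in CEBPG, ASNS and SLC1A4, and of 1 of 3 in JDP2, SLC3A2 and SLC1A5. It lay in 3 of 4 in MTHFD1L, and CHAC1 and SLC7A1 had only 1 listed start. In 6 of the 9 the matched letters read TGATGCAA, in ASNS and SLC7A1 TGATGAAA, and in SLC3A2 TGATGTAA. All 9 genes with a match rose in both knock-ins against the knockout, where 18.5% of all genes tested rose in the wild type and 24.1% in the mutant. The median log2 changes of the 9 were 0.91 and 1.63. Of the 17 genes whose windows held none, 12 rose and 1 fell in each knock-in, with medians of 1.23 and 1.65. Against senescent control, 8 of the 9 genes with a match rose in each knock-in (20.8% and 27.0% of all genes), with medians of 0.96 in the wild type and 1.26 in the mutant. Of the 17 genes without a match, 14 rose in the wild type, and 12 rose and 1 fell in the mutant, with medians of 0.66 and 1.21. The order of the 2 medians therefore differed with the reference group.

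Most of the 34 genes were higher in senescent knockout cells given METTL3 than in those without, with the wild type and with the mutant METTL3. By edgeR's quasi-likelihood test with Benjamini-Hochberg adjustment (a gene is said to rise or fall at an adjusted p under 0.05), 25 rose and 2 fell in the wild type knock-in against the knockout, where 18.5% of all genes tested rose and 14.8% fell. In the mutant knock-in against the knockout, 25 rose and 3 fell, against 24.1% and 24.3% of all genes. Log2 fold changes below are given ± SE of the fit. The median log2 change of the 34 genes was 1.04 and 1.39, and that of all genes 0.02 and 0.01. Against senescent control, which has no added METTL3, 26 rose and 0 fell in the wild type knock-in (20.8% and 19.1% of all genes), and 25 rose and 1 fell in the mutant knock-in (27.0% and 26.3%). These 4 comparisons share groups and are not independent of each other.

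**Figure D1:**
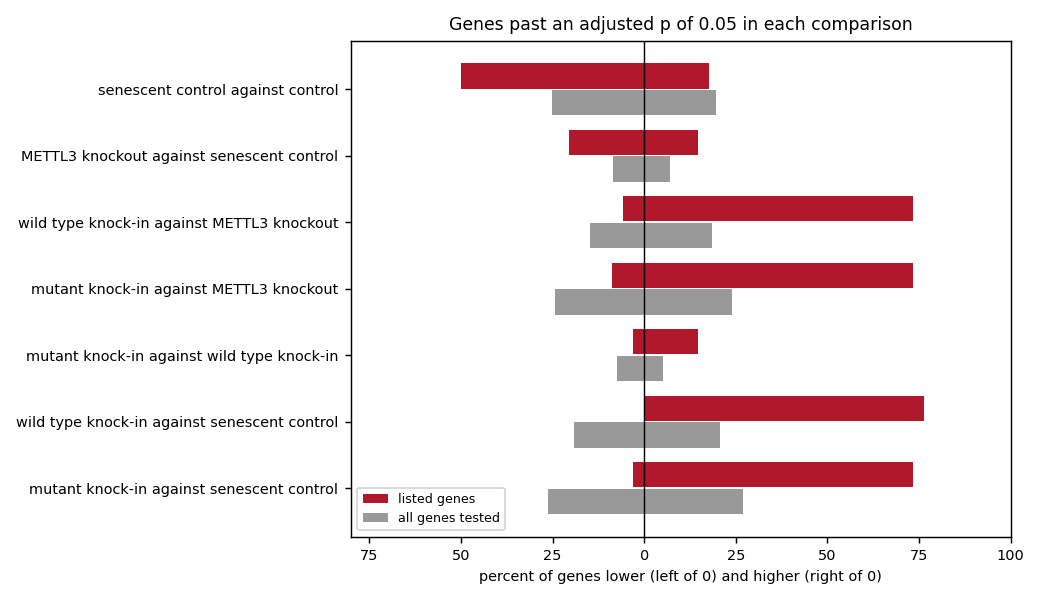
Percent of the 34 listed genes (red) and of the 16760 genes tested (grey) that were lower (left of 0) or higher (right of 0) at an adjusted p under 0.05 in each comparison. In the 4 comparisons of a knock-in with a group without one, 25 or 26 of the 34 genes were higher, and in senescent control against control 17 were lower.

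With RAS, and with METTL3 lowered, the list did not rise as a group. In senescent control against control, 6 of the 34 rose and 17 fell (19.7% and 25.3% of all genes), with a median log2 change of -0.29. In the knockout against senescent control, 5 rose and 7 fell (7.17% and 8.62% of all genes), with a median of -0.01, and the balance of that split turned with the scaling: upper-quartile scaling gave 6 higher and 4 lower. The mutant against the wild type knock-in gave 5 higher and 1 lower (5.16% and 7.39% of all genes, and 1056 higher and 773 lower over all genes under upper-quartile scaling, where the main scaling gave 865 and 1238).

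**Figure D2:**
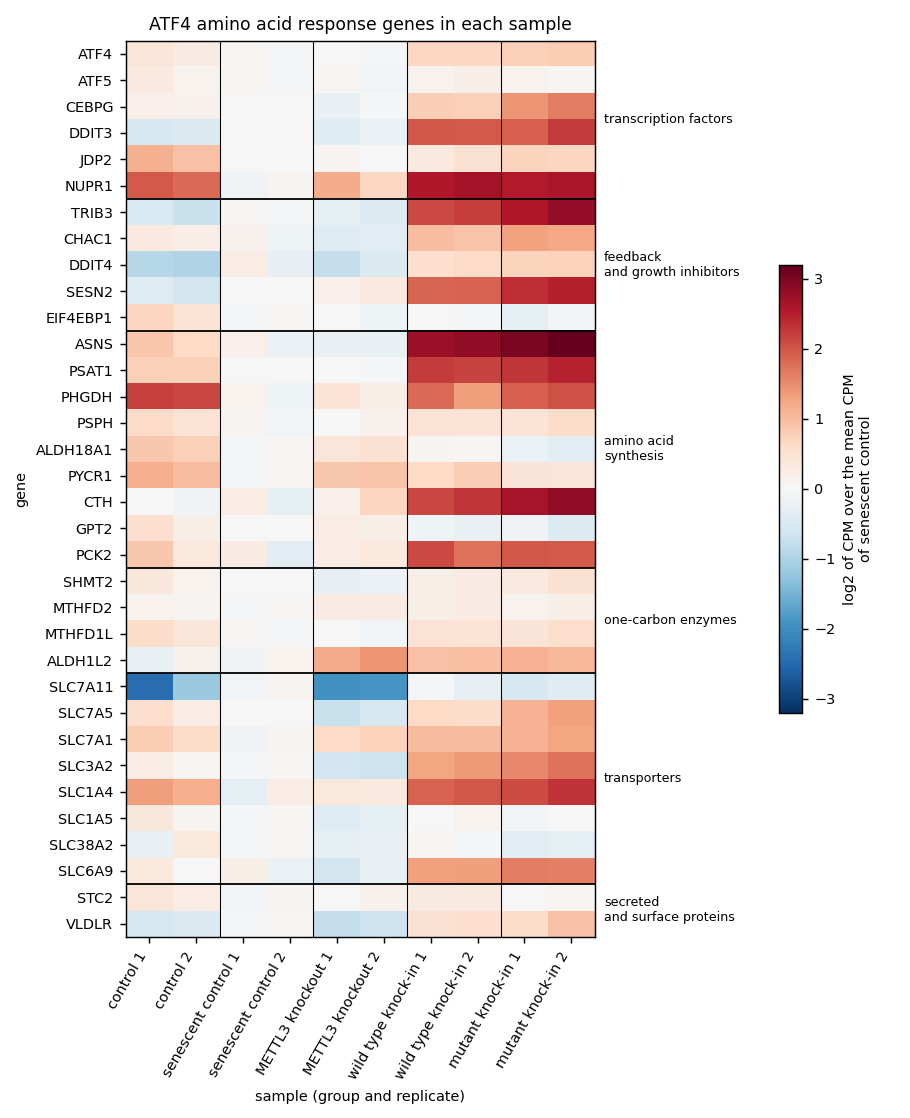
Log2 of each sample's CPM over the mean CPM of senescent control, for the 34 genes (rows, grouped by role) in the 10 samples (columns). The 4 knock-in samples are red for most genes, with ASNS, TRIB3, NUPR1 and CTH the deepest, while ATF5, EIF4EBP1, ALDH18A1, GPT2, MTHFD2, SLC1A5, SLC38A2 and STC2 stay pale.

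Among the 6 transcription factors, 5 rose in both knock-ins. ATF4 itself stood at 102 and 93.0 CPM in control, 81.0 and 75.1 in senescent control, 78.4 and 76.7 in the knockout, 124 and 123 in the wild type and 133 and 137 in the mutant knock-in. Each knock-in sample lay above every other sample, and the knockout overlapped senescent control. The log2 change against the knockout was 0.67 ± 0.09 in the wild type knock-in (adjusted p = 1.19e-04) and 0.80 ± 0.09 in the mutant (adjusted p = 1.91e-05). CEBPG, a C/EBP protein that pairs with ATF4, differed little among the groups without a knock-in, at 21.3 and 20.9 CPM in control, 19.2 and 19.0 in senescent control and 16.3 and 18.7 in the knockout. It reached 33.1 and 32.7 CPM in the wild type and 50.5 and 59.6 in the mutant knock-in, with log2 changes of 0.91 ± 0.11 and 1.65 ± 0.11 from the knockout. DDIT3 (CHOP), which ATF4 induces and which promotes cell death under lasting stress, stood at 5.65 and 5.82 CPM in control, 7.95 and 8.04 in senescent control, 6.12 and 6.88 in the knockout, 31.5 and 31.1 in the wild type and 30.3 and 37.6 in the mutant knock-in. Its log2 changes from the knockout, 2.27 ± 0.13 and 2.38 ± 0.13, were the largest of the 6 factors. Of its exon bases 31.6% overlap MARS1 or MBD6 on the other strand, and without a stated strand setting their reads cannot be told apart.

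NUPR1, a small stress-induced chromatin protein, followed another course before it rose. It fell from 11.5 and 10.4 CPM in control to 2.74 and 3.15 in senescent control, a log2 change of -1.89 ± 0.18, stood at 6.75 and 4.69 in the knockout, and reached 17.5 and 18.7 CPM in the wild type and 17.2 and 18.1 in the mutant knock-in. The knock-ins lay above control, and senescent control below every other sample. The rise in the knockout over senescent control, 0.94 on the log2 scale (adjusted p = 0.00510), was lost without senescent control replicate 1 (adjusted p = 0.0608) and without knockout replicate 1 (adjusted p = 0.0757). JDP2, a bZIP repressor, fell in senescent control against control (-1.05 ± 0.11) and rose in the knock-ins by 0.37 and 0.66, staying at 14.2 to 18.5 CPM there against 24.99 and 21.7 in control. The wild type call was lost without either knockout sample and without wild type replicate 2 (adjusted p = 0.258), with DESeq2 (0.118) and with no low-count filter (0.0502). ATF5, a relative of ATF4 that is also controlled at translation, passed the test in none of the 7 comparisons and ranged from 25.2 to 33.4 CPM. Of its exon bases 23.7% overlap NUP62 or IL4I1 on the other strand, with the same limit as for DDIT3.

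Of the feedback and growth inhibitors, 4 of 5 rose by more than 1 on the log2 scale in both knock-ins. TRIB3, a pseudokinase that binds ATF4 and restrains it, stood at 9.54 and 8.24 CPM in control, 13.7 and 13.1 in senescent control, 10.8 and 9.86 in the knockout, 57.9 and 62.4 in the wild type and 79.7 and 94.5 in the mutant knock-in. No knock-in sample came near the others, and the log2 changes from the knockout were 2.54 ± 0.12 (adjusted p = 5.55e-08) and 3.08 ± 0.12 (adjusted p = 8.43e-09). SESN2, which senses leucine and holds mTORC1 back, had a higher mean in each later group, going from 25.8 and 22.6 CPM in control to 34.5 and 33.8 in senescent control (0.50 ± 0.10), 38.3 and 42.5 in the knockout, 124 and 127 in the wild type and 175 and 193 in the mutant knock-in. The step from senescent control to the knockout, 0.24 ± 0.10, did not pass the test (adjusted p = 0.132). CHAC1, an enzyme that degrades glutathione, stood at 25.9 and 24.1 CPM in control, 22.8 and 18.9 in senescent control, 15.6 and 16.5 in the knockout, 41.4 and 39.4 in the wild type and 50.8 and 48.8 in the mutant knock-in. The knock-ins gave log2 changes of 1.33 ± 0.11 and 1.63 ± 0.11 from the knockout.

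DDIT4 (REDD1), an mTORC1 inhibitor, was lowest in control. Its CPM was 4.77 and 4.61 in control, 10.6 and 7.49 in senescent control, 5.37 and 6.57 in the knockout, 13.1 and 13.8 in the wild type and 14.9 and 15.0 in the mutant knock-in. It rose with RAS (0.94 ± 0.17) and again in both knock-ins against the knockout (1.17 ± 0.17 and 1.32 ± 0.17), and 41.2% of its exon bases overlap DDIT4-AS1. The fall of DDIT4 in the knockout (-0.59, adjusted p = 0.0378, 0.00585 to 0.367 over the alternatives) was lost without senescent control replicate 1 (-0.32) and without either knockout sample, and also with DESeq2, upper-quartile scaling and a replicate block. That of CHAC1 (-0.37, adjusted p = 0.0438, 0.00933 to 0.367 over the alternatives) was lost without the same 3 samples and with DESeq2 and upper-quartile scaling, and its log2 change was -0.23 without senescent control replicate 1. EIF4EBP1, the 4E-BP1 brake on cap-dependent translation, fell with RAS (-0.57 ± 0.12) and ranged from 11.5 to 14.2 CPM in the senescent groups, with no call in any of the other 6 comparisons.

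**Figure D3:**
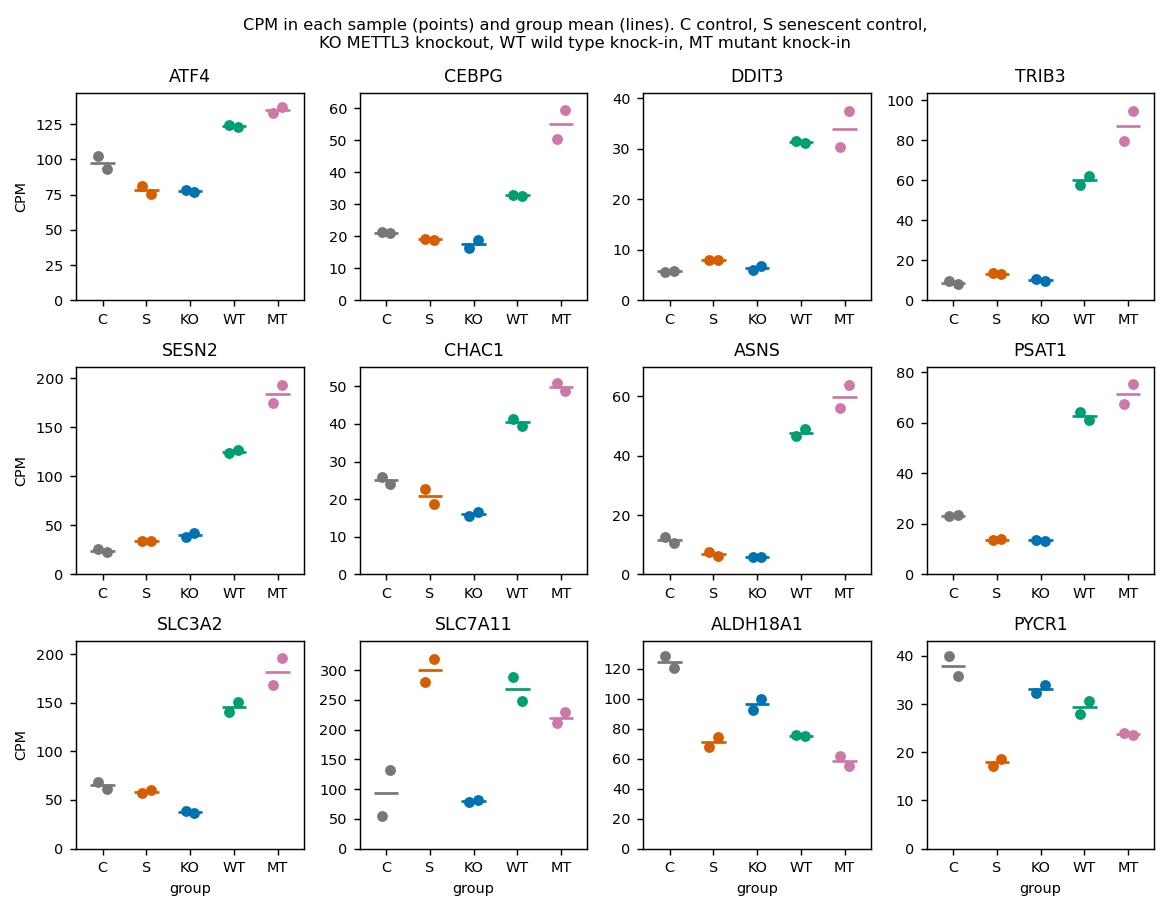
CPM of 12 of the genes in each sample (points) with the group mean (line), for control (C), senescent control (S), METTL3 knockout (KO), wild type knock-in (WT) and mutant knock-in (MT). ATF4, CEBPG, DDIT3, TRIB3, SESN2, CHAC1, ASNS, PSAT1 and SLC3A2 are highest in the knock-ins, SLC7A11 is high in senescent control and the knock-ins and low in control and knockout, and ALDH18A1 and PYCR1 are highest in control.

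Of the 9 enzymes of amino acid synthesis, 6 rose in both knock-ins against the knockout (ASNS, PHGDH, PSAT1, PSPH, CTH and PCK2), and ALDH18A1, PYCR1 and GPT2 rose in neither. ASNS, which makes asparagine and is the classical gene with a response element in its promoter, had the largest change of the 34 genes. It stood at 12.7 and 10.7 CPM in control, 7.73 and 6.07 in senescent control, 5.89 and 5.84 in the knockout, 46.7 and 48.9 in the wild type and 56.1 and 63.8 in the mutant knock-in. The log2 changes were 3.03 ± 0.14 and 3.35 ± 0.14 from the knockout (adjusted p = 4.78e-08 and 1.29e-08), and senescent control lay below control at -0.77 ± 0.14. In the serine pathway, PSAT1 (the aminotransferase step) stood at 23.1 and 23.4 CPM in control, 13.5 and 13.9 in senescent control, 13.7 and 13.4 in the knockout, 64.5 and 61.2 in the wild type and 67.3 and 75.2 in the mutant knock-in. Both knock-ins exceeded control, and the changes from the knockout were 2.22 ± 0.10 and 2.40 ± 0.10.

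PHGDH, the first step of serine synthesis, differed from PSAT1 in that the knock-ins did not exceed control. PHGDH fell from 14.2 and 13.8 CPM in control to 3.40 and 2.88 in senescent control (-2.16 ± 0.18, the largest fall with RAS among the 34) and stood at 4.27 and 3.65 in the knockout. It rose to 11.1 and 7.97 CPM in the wild type and 11.9 and 13.0 in the mutant knock-in (1.26 ± 0.18 and 1.65 ± 0.18 from the knockout), all below the control samples. PSPH, the last step, moved less: it fell with RAS (-0.55 ± 0.13, lost without senescent control replicate 2, adjusted p = 0.0729) and rose by 0.38 and 0.44 in the knock-ins. Those 2 calls were lost with DESeq2 and when any of several single samples was left out, and the wild type call also with no low-count filter and with a replicate block (adjusted p = 0.0234 to 0.237 and 0.00535 to 0.151 over the alternatives). CTH, which makes cysteine from cystathionine, was low in the first 3 groups, at 2.36 and 2.19 CPM in control, 2.80 and 1.92 in senescent control and 2.66 and 3.81 in the knockout. It reached 10.4 and 11.6 CPM in the wild type and 14.8 and 16.8 in the mutant knock-in, log2 changes of 1.76 ± 0.20 and 2.28 ± 0.19. PCK2, the mitochondrial enzyme that makes phosphoenolpyruvate, went from 2.05 to 4.73 CPM in the 6 samples without a knock-in to 8.58 to 11.2 CPM with one (1.63 ± 0.23 and 1.67 ± 0.23). Its fall with RAS (-0.64, adjusted p = 0.0498) was lost without control replicate 1 (-0.34) and without senescent control replicate 2 (-0.32), and also with DESeq2, upper-quartile scaling, METTL3 removed before scaling and only the 2 groups compared (adjusted p = 0.00540 to 0.404 over the alternatives).

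Neither proline enzyme rose over the knockout, in which both had risen. ALDH18A1, which commits glutamate to proline, stood at 128 and 121 CPM in control, 67.9 and 74.5 in senescent control, 92.7 and 99.9 in the knockout, 76.0 and 74.9 in the wild type and 61.9 and 55.1 in the mutant knock-in. It fell with RAS (-0.81 ± 0.09), rose in the knockout (0.44 ± 0.09) and fell in both knock-ins (-0.35 ± 0.09 and -0.72 ± 0.10). PYCR1, the final proline step, stood at 39.9 and 35.7 CPM in control, 17.2 and 18.6 in senescent control, 32.3 and 33.9 in the knockout, 27.9 and 30.7 in the wild type and 23.98 and 23.6 in the mutant knock-in. It rose in the knockout by 0.89 ± 0.10 and fell in the mutant knock-in (-0.48 ± 0.10), and the wild type change of -0.18 did not pass (adjusted p = 0.201). Against senescent control, PYCR1 was higher in both the wild type (0.71 ± 0.10, adjusted p = 1.89e-04) and the mutant knock-in (0.41 ± 0.10, adjusted p = 0.00568). The first of these calls held under all 10 alternatives, and the second was lost without senescent control replicate 1 (adjusted p = 0.0766). Of PYCR1 exon bases 29.7% overlap other genes. GPT2, the mitochondrial alanine aminotransferase, stood at 18.9 and 14.9 CPM in control, 13.2 and 12.9 in senescent control, 15.3 and 14.8 in the knockout, 11.96 and 11.0 in the wild type and 12.1 and 9.56 in the mutant knock-in. Its fall in the mutant knock-in (-0.47 ± 0.15) was lost without knockout replicate 1 (adjusted p = 0.0690) or mutant replicate 2 (adjusted p = 0.0951), and that with RAS (-0.37, adjusted p = 0.0463, 0.00405 to 0.340 over the alternatives) without control replicate 1 (-0.18) or either senescent control sample and under the same 4 settings as that of PCK2. The ALDH18A1 rise in the knockout was lost without senescent control replicate 1 (adjusted p = 0.114) or knockout replicate 2 (adjusted p = 0.0953), and its wild type fall without knockout replicate 2 (adjusted p = 0.0836) or wild type replicate 1 (adjusted p = 0.0560).

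The one-carbon enzymes changed little in the knock-ins. SHMT2, which splits serine into glycine and a one-carbon unit in mitochondria, stood at 81.4 and 69.3 CPM in control, 62.7 and 64.5 in senescent control, 53.3 and 55.6 in the knockout, 72.2 and 76.5 in the wild type and 79.5 and 89.8 in the mutant knock-in. The knock-ins lay above the knockout but overlapped control, with log2 changes of 0.45 ± 0.10 and 0.64 ± 0.10 from the knockout. The wild type call was lost without knockout replicate 1 (adjusted p = 0.0654) or wild type replicate 2 (adjusted p = 0.0604). MTHFD1L, the mitochondrial formate-releasing enzyme, stood at 43.3 and 37.8 CPM in control, 29.8 and 28.1 in senescent control, 28.7 and 27.3 in the knockout, 40.0 and 38.9 in the wild type and 38.8 and 42.8 in the mutant knock-in. It fell with RAS (-0.49 ± 0.10) and returned to the range of control in the knock-ins (0.50 ± 0.10 and 0.54 ± 0.10 from the knockout). MTHFD2, which oxidises the one-carbon unit in mitochondria, ranged only from 52.9 to 65.3 CPM over all samples and passed the test in 1 comparison, the wild type knock-in against senescent control (0.23, adjusted p = 0.0466), a call lost when any 1 of the 4 samples was left out (highest adjusted p = 0.333, without wild type replicate 2), with DESeq2, with no low-count filter, with METTL3 removed before scaling and with a replicate block.

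ALDH1L2, which burns formyl-folate in mitochondria to make NADPH, changed at another step than the rest. It stood at 28.6 and 37.3 CPM in control, 31.3 and 36.1 in senescent control, 76.6 and 89.1 in the knockout, 65.0 and 65.5 in the wild type and 72.2 and 69.9 in the mutant knock-in. Its rise of 1.30 ± 0.13 in the knockout (adjusted p = 3.47e-05) was the largest rise of the 34 in that comparison and passed under every alternative run. The knock-ins stayed above senescent control (0.95 and 1.08). The slight fall in the wild type knock-in against the knockout (-0.34, adjusted p = 0.0490) was lost with DESeq2 and when any 1 of the 4 samples was left out (adjusted p = 0.00176 to 0.284 over the alternatives).

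Of the 8 transporters, 7 rose in each knock-in against the knockout, and the exception was SLC38A2. SLC3A2, the heavy chain that carries SLC7A5 and SLC7A11 to the surface, stood at 68.6 and 61.5 CPM in control, 57.0 and 59.8 in senescent control, 38.4 and 37.1 in the knockout, 140.2 and 150.4 in the wild type and 169 and 196 in the mutant knock-in. It fell in the knockout (-0.63 ± 0.10) and rose from there by 1.94 ± 0.10 and 2.27 ± 0.10, so that all knock-in samples lay above all others. SLC7A5 (LAT1), the light chain that imports leucine and other large neutral amino acids, stood at 98.9 and 80.6 CPM in control, 68.0 and 67.5 in senescent control, 41.4 and 47.1 in the knockout, 106 and 101 in the wild type and 147 and 167 in the mutant knock-in. It likewise fell in the knockout (-0.61) and rose by 1.23 ± 0.12 and 1.82 ± 0.12 from there. Its fall in the knockout had an adjusted p of 0.00315, and of 0.0517 without knockout replicate 1. SLC1A4, which carries serine, alanine and cysteine, stood at 11.7 and 10.4 CPM in control, 3.78 and 5.52 in senescent control, 5.89 and 5.74 in the knockout, 17.1 and 18.5 in the wild type and 19.9 and 23.1 in the mutant knock-in. It had fallen with RAS (-1.23 ± 0.17), and the knock-ins exceeded even the control samples (1.61 ± 0.16 and 1.89 ± 0.16 from the knockout).

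SLC7A11, the cystine importer xCT, was high with RAS and lost that level in the knockout. Its CPM was 54.8 and 132 in control, 279.8 and 319 in senescent control, 78.6 and 81.2 in the knockout, 289 and 248 in the wild type and 211 and 229 in the mutant knock-in. Knockout samples lay between the 2 control samples, which differ more than 2-fold from each other, and the knock-ins reached the level of senescent control or below it. The log2 changes were 1.68 ± 0.35 with RAS, -1.91 ± 0.35 in the knockout, 1.75 ± 0.35 in the wild type and 1.46 ± 0.35 in the mutant knock-in. Their SEs are the widest of the 34 genes. The knockout call (adjusted p = 0.0113) was lost without senescent control replicate 2 (adjusted p = 0.0525) and with no low-count filter (adjusted p = 0.0577), although no knockout sample came near a senescent control sample. With no low-count filter the mutant call was lost as well (adjusted p = 0.0659).

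SLC7A1 (CAT1), the arginine and lysine importer, rose already in the knockout. It stood at 152 and 131 CPM in control, 80.4 and 92.8 in senescent control, 132 and 145 in the knockout, 176 and 175 in the wild type and 186 and 208 in the mutant knock-in. The knockout change was 0.68 ± 0.11, and the further 0.34 in the wild type knock-in was lost when any 1 of the 4 samples was left out (adjusted p = 2.88e-04 to 0.234 over the alternatives). The mutant rise of SLC7A1, 0.51, had an adjusted p of 0.00209, and of 0.0501 without mutant replicate 2. SLC6A9 (GLYT1), a glycine importer, went from 1.79 to 3.41 CPM without a knock-in to 6.71 to 8.41 with one (1.72 ± 0.20 and 2.02 ± 0.20). SLC1A5 (ASCT2), a glutamine importer, rose by 0.43 and 0.33 from a knockout level that had fallen (-0.36), and stood between 91.1 and 154 CPM in all samples. Each SLC1A5 call was lost without 1 library or another: the knockout fall without any 1 of the 4 samples (adjusted p = 0.216 without senescent control replicate 2) and under upper-quartile scaling (0.0603), the wild type rise without knockout replicate 1 (adjusted p = 0.0984) or wild type replicate 2 (adjusted p = 0.0898), and the mutant rise without either knockout sample or mutant replicate 2 (adjusted p = 0.231). SLC38A2 (SNAT2), a sodium-coupled carrier of small neutral amino acids, passed the test in none of the 7 comparisons. Its control samples stood at 1272 and 1869.9 CPM and bracketed all others except those of the knockout and the mutant knock-in, which lay between 1183 and 1251.

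Of the secreted and surface proteins, VLDLR, a lipoprotein receptor, followed the majority and STC2, a secreted glycoprotein, did not. VLDLR stood at 5.82 and 6.18 CPM in control, 8.33 and 8.77 in senescent control, 5.02 and 5.42 in the knockout, 12.1 and 12.4 in the wild type and 12.9 and 16.5 in the mutant knock-in. It rose with RAS (0.51 ± 0.15), fell in the knockout (-0.71 ± 0.15) and rose by 1.22 ± 0.15 and 1.49 ± 0.15 in the knock-ins. The first of these calls was lost without senescent control replicate 2 (adjusted p = 0.0697), and the fall without that sample (adjusted p = 0.0657) or knockout replicate 1 (adjusted p = 0.0752). STC2 stood at 361 and 324 CPM in control, 259 and 289 in senescent control, 272 and 299.9 in the knockout, 333 and 336 in the wild type and 278 and 286 in the mutant knock-in. Control and the wild type knock-in ran highest, and neither knock-in passed the test against the knockout (0.23 ± 0.09 and -0.02 ± 0.09).

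**Figure D4:**
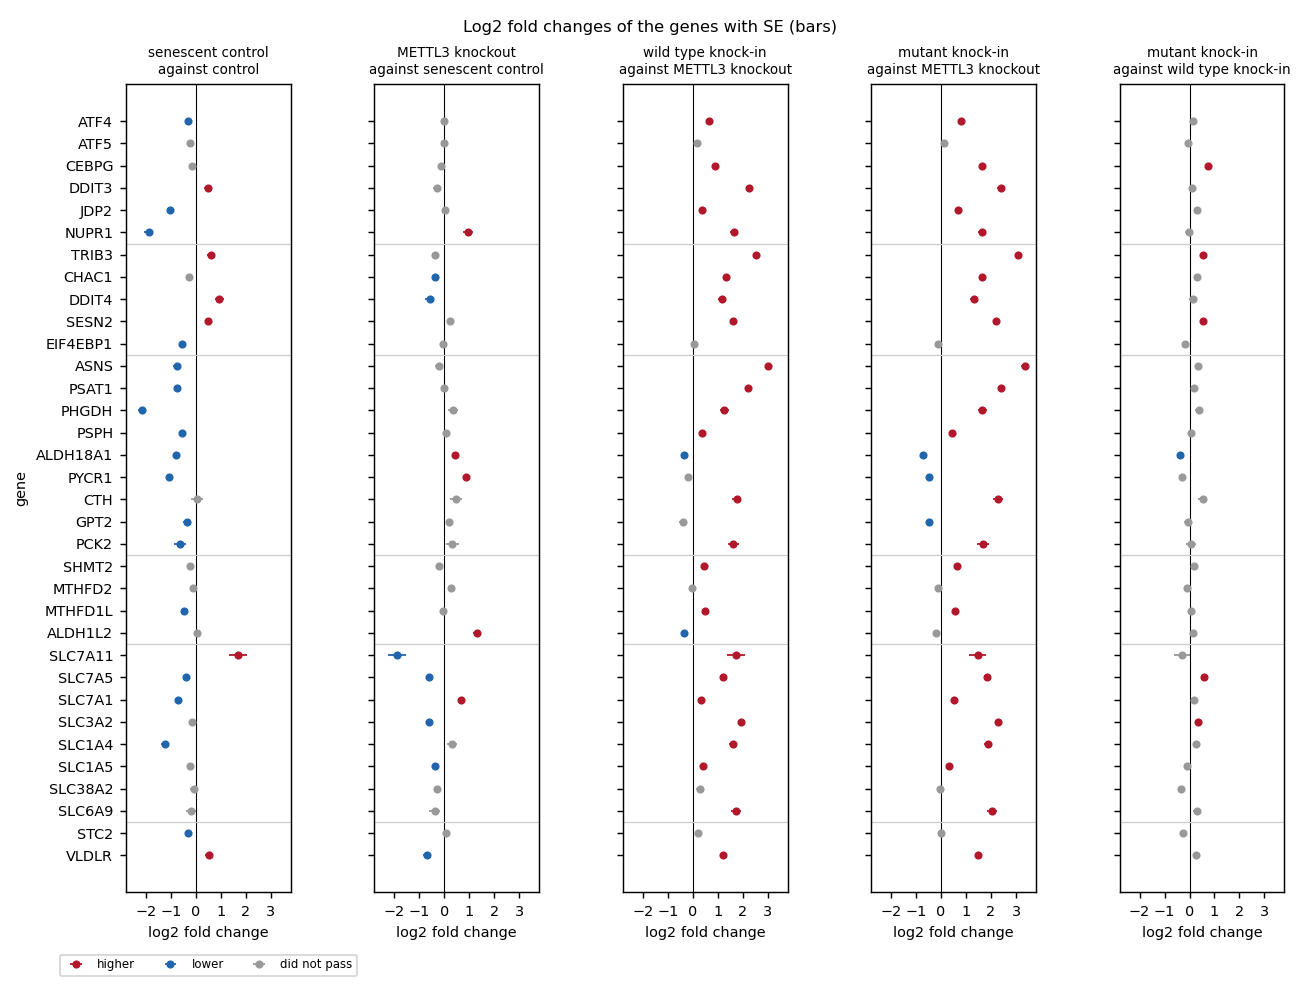
Log2 fold changes (points) with SE (bars) of the 34 genes in 5 comparisons, red where higher, blue where lower and grey where the test was not passed. The knock-in panels lie to the right of 0 for all but a few genes, with ASNS furthest at 3.03 and 3.35, and the panel of mutant against wild type reaches no further than 0.74 (CEBPG).

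With RAS alone, 8 of the 9 enzymes listed under amino acid synthesis fell, PCK2 counted among them, where 25.3% of all genes fell. CTH (0.03 ± 0.24) did not pass, and the median log2 change of the 9 was -0.76. The 6 genes that rose with RAS were DDIT3, TRIB3, DDIT4, SESN2, SLC7A11 and VLDLR, of which TRIB3, DDIT4 and SESN2 are mTORC1 or ATF4 inhibitors. ATF4 RNA fell (-0.32 ± 0.09), a call lost without senescent control replicate 2 (-0.23, adjusted p = 0.163) and with only the 2 groups compared (adjusted p = 0.120). The rise of DDIT3, 0.48, had an adjusted p of 0.0523 without senescent control replicate 1 and 0.0626 without replicate 2. The falls of SLC7A5 (-0.41) and STC2 (-0.32) were lost without senescent control replicate 1 (adjusted p = 0.0773 and 0.210), and that of SLC7A5 also without replicate 2 (adjusted p = 0.0912). Both were lost with only the 2 groups compared (adjusted p = 0.0820 and 0.128). The calls of PCK2, GPT2, PSPH and VLDLR with RAS were lost under some alternatives as well, as given above, so 3 of these enzyme falls were not stable. The other 15 calls with RAS passed under each of the 10 alternatives run.

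In the knockout, the 5 genes that rose were NUPR1, ALDH18A1, PYCR1, ALDH1L2 and SLC7A1, and the 7 that fell were CHAC1, DDIT4, SLC7A11, SLC7A5, SLC3A2, SLC1A5 and VLDLR. The 3 chains of the LAT1 and xCT exchangers, SLC7A5, SLC7A11 and SLC3A2, were all among those that fell. Calls that passed under all 10 alternatives were 4: PYCR1, ALDH1L2, SLC7A1 and SLC3A2. Without knockout replicate 1, 6 of the 34 genes were called in place of 12, and without senescent control replicate 1, 7.

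Between mutant and wild type knock-in, 6 of the 34 genes differed in the fit over all groups. With only the 2 groups compared, 13 were called, 8 higher and 5 lower. CEBPG was higher in the mutant by 0.74 ± 0.10 (adjusted p = 0.00217), with both mutant samples above both wild type samples, and this call held under all 10 alternatives. TRIB3 (0.53 ± 0.10), SESN2 (0.56 ± 0.09), SLC7A5 (0.60 ± 0.11) and SLC3A2 (0.33 ± 0.10) were higher as well, and ALDH18A1 was lower (-0.37 ± 0.10). Among SLC7A5 samples, too, both mutant values lay above both wild type values. These 5 calls were lost without wild type replicate 2 and without mutant replicate 2, where the adjusted p was 0.0711 and 0.126 for TRIB3, 0.0578 and 0.0764 for SESN2, 0.0909 and 0.0968 for SLC7A5, 0.148 and 0.319 for SLC3A2, and 0.168 and 0.229 for ALDH18A1. TRIB3 (0.0653), SLC3A2 (0.218) and ALDH18A1 (0.0799) also missed the threshold without wild type replicate 1, and SLC3A2 (0.0687) and ALDH18A1 (0.0619) without mutant replicate 1. The SLC3A2 call was also lost with no low-count filter (0.0718) and with a replicate block (0.0607), and that of ALDH18A1 under upper-quartile scaling (0.0528). For the other 28 genes the test was not passed, with ASNS at 0.33 ± 0.12 and PSAT1 at 0.18 ± 0.09, which does not show that the 2 groups were alike. The METTL3 level of the mutant group was 2.25 times that of the wild type, and its part in these differences was not tested.

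Other genes of the pathway were taken from lists of their own, which were also chosen with earlier results of these data known. Against the knockout, 18.5% of all genes tested rose and 14.8% fell in the wild type knock-in. In the mutant knock-in 24.1% rose and 24.3% fell. Of 13 further ATF4 targets and partners, 12 rose and 0 fell in each knock-in against the knockout, with median log2 changes of 1.03 and 1.30. The 3 with the smallest p in the wild type knock-in were HMOX1, the haem-degrading enzyme (2.90 ± 0.12), ATF3, a stress-induced bZIP factor (4.19 ± 0.18), and SQSTM1, the autophagy receptor p62 (1.68 ± 0.10). Of 11 cytosolic tRNA synthetases, 8 rose and 0 fell in each knock-in. Those with the smallest p in the wild type were AARS1 (1.47 ± 0.11), YARS1 (0.81 ± 0.09) and MARS1 (0.75 ± 0.09). Upstream, of 7 eIF2 kinases and their relay proteins, 0 rose and 1 fell in the wild type knock-in, EIF2AK1 (HRI, the haem-regulated kinase, -0.38 ± 0.09), and 1 rose and 5 fell in the mutant. The 1 that rose in the mutant was EIF2AK2 (0.78), at 264 and 284 CPM in the knockout, 300 and 268 in the wild type and 488 and 453 in the mutant knock-in. Among 6 genes of eIF2, its exchange factor and its phosphatase, 3 rose and 1 fell in the wild type: PPP1R15A (GADD34, the stress-induced phosphatase subunit that ends the response, 1.54 ± 0.16), PPP1R15B (0.51 ± 0.09) and EIF2B5 (0.48 ± 0.10) rose, and EIF2S1, the eIF2 subunit that the kinases phosphorylate, fell (-0.53 ± 0.13). In the mutant 3 of the 6 rose and 3 fell, with a median of 0.01 and EIF2S1 at -0.67 ± 0.13. Against senescent control, 2 of the 7 eIF2 kinases and relay proteins rose and 2 fell in each knock-in. The shares of all genes were 20.8% and 19.1% in the wild type and 27.0% and 26.3% in the mutant. The kinase EIF2AK3 stood at 23.0 and 26.5 CPM in senescent control and 39.1 and 43.0 in the knockout. It was at 40.5 and 42.0 CPM in the wild type and 40.4 and 41.9 in the mutant knock-in.

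Lists of neighbouring responses, chosen in the same way, moved to different extents. The shares of all genes given above for the knock-ins against the knockout apply here too. In the knockout against senescent control, 7.17% of all genes rose and 8.62% fell. Of 10 chaperones of the ATF6 and XBP1 branches of the unfolded protein response, 1 rose and 0 fell in the wild type knock-in, HSPA5 (BiP, 0.42 ± 0.08), with a median of -0.03, and 2 rose and 4 fell in the mutant. Of 7 targets of NRF2, the oxidative stress factor that also drives SLC7A11, 5 fell and 0 rose in the knockout against senescent control. In the wild type knock-in 5 rose and 0 fell against the knockout. The 3 with the smallest p there were OSGIN1 (1.89 ± 0.14), TXNRD1 (0.94 ± 0.08) and NQO1 (0.70 ± 0.09). In the mutant knock-in 3 of the 7 rose against the knockout. Against senescent control, 3 rose and 2 fell in the wild type (20.8% and 19.1% of all genes). In the mutant 1 rose and 3 fell against senescent control (27.0% and 26.3%). NQO1 stood at 180 and 171 CPM in senescent control, 54.5 and 53.9 in the knockout and 86.8 and 89.9 in the wild type. Among 7 other amino acid carriers, 3 rose and 1 fell in the wild type knock-in against the knockout. The largest rise was that of the glutamate importer SLC1A3 (2.15 ± 0.45), a gene of few counts. It stood at 0.404 and 0.313 CPM in the knockout and 1.95 and 1.31 in the wild type. Among 8 other amino acid enzymes tested, 2 rose and 2 fell in that comparison, with CBS (0.82 ± 0.15) and GOT1 (0.62 ± 0.12) higher and BCAT1 (-0.71 ± 0.18) lower. In the mutant knock-in against the knockout, 2 of the carriers rose and 2 fell, and 3 of the enzymes rose and 4 fell.

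On a scale of CPM per kilobase of exon, SLC38A2 had the highest level of the 34 in every group. It stood at 238 ± 64.1 (SD, n = 2) in control and 181 ± 3.17 in the mutant knock-in. STC2, SLC1A5 and ATF4 followed in all groups without a knock-in. SESN2 moved from rank 18 in control to rank 3 in the mutant knock-in, at 53.3 ± 3.69, level with ATF4 at 53.6 ± 1.28 within their spread. TRIB3 moved from rank 26 to rank 11 and ASNS from 25 to 16, whereas ALDH18A1 went from 5 to 15. On this scale PHGDH was last of the 34 in senescent control and in both knock-ins despite its rise. It stood at 1.03 CPM per kilobase in the wild type and 1.35 in the mutant knock-in, over an exon length of 9.22 kb. Per length values use GENCODE 29 exon lengths, which belong to another build than the counts. Each length merges the exons of all annotated transcripts of a gene, which can exceed the transcript in these cells. Ranks between genes depend on that choice and are only a rough guide.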

How the data were processed

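RNA of 10 samples in 5 groups of 2 was sequenced, from KAPA RNA HyperPrep libraries per the labels' protocols. The authors deposited 1 table of whole-number counts per Ensembl gene, with no normalization. Bowtie2 (version not given), RSEM 1.2.12 and hg19 are named per the submitters' processing notes, so the counts may be rounded estimates. Neither strand setting nor annotation is stated there, which leaves reads of overlapping genes (13 of the 34 genes share exon bases with another, in GENCODE 29) undivided. Pseudogenes held at most 0.544% of a member's counts.

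The 34 genes and all other lists were chosen with earlier results of these data known. The deposited counts went into edgeR 4.0.16 (R 4.3.3): filterByExpr with a minimum count of 10 (16760 genes), TMM scaling, a coefficient per group over all 10 samples (5 residual degrees of freedom, biological coefficient of variation 9.22%) and the robust quasi-likelihood F test, 2-sided, with Benjamini-Hochberg adjustment over all genes tested. SE is the log2 change over the square root of F and rests on the spread of all groups. CPM uses TMM-scaled totals. The script was tested on simulated data. Alternatives were DESeq2 1.42.0, upper-quartile scaling, no low-count filter, METTL3 removed before scaling, a replicate block, only the 2 groups compared, and leaving out each replicate.

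All 34 genes are named. Values in every sample are given for ATF4, for the genes with the largest change in each role in the wild type knock-in against the knockout among those with a group mean of at least 10 CPM, and for genes against the majority. PHGDH and SLC7A5 were added after their values were seen. A further gene list is not reported here. List genes are the 3 with the smallest p. Promoter letters come from RefSeq (GRCh38.p14).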

Additional observations from a re-analysis of the deposited data

How the results depend on the processing

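Depth limits the genes with few counts: in the knockout against senescent control the SE was 0.24 for CTH and 0.26 for PCK2, against 0.09 for ATF4. In a leave-one-out fit the lone sample of a group is assumed to vary like the other groups. The lists other than the 34 genes were tested with the main settings alone. Counts of the 34 genes called in the knock-ins against the knockout or senescent control, and with RAS, stayed within 1.5 times of the values reported under all 10 alternatives each. In the knockout against senescent control, 12 genes became 10 under upper-quartile scaling, with more higher than lower, and 6 to 9 when a replicate was left out, with more higher than lower without senescent control replicate 2 (9) and without knockout replicate 1 (6), and 7 without senescent control replicate 1. In the mutant against the wild type knock-in, 6 became 13 with only the 2 groups compared and 1 to 4 when a replicate was left out (3 without wild type replicate 1, 1 without wild type replicate 2, 1 without mutant replicate 2). SLC38A2, not called with RAS, was higher by 0.27 without control replicate 2 (adjusted p = 0.00296) and lower, at -0.31, without control replicate 1. The causes were not tested. Over all genes, the 7549 called with RAS ranged from 5108 to 8974, the 2646 of the knockout from 1198 to 5621, the 5584 and 8119 of the wild type and mutant knock-in against the knockout from 3390 to 7256 and from 5873 to 9795, the 6679 and 8939 against senescent control from 4367 to 8124 and from 6864 to 10366, and the 2103 of mutant against wild type from 123 (without mutant replicate 2) to 4078 (only the 2 groups compared). Replicate numbers only name samples here: deviations of same-numbered samples correlated between -0.089 and 0.045 over the pairs of groups compared. With a replicate block, 23, 11, 27, 28, 5, 25 and 26 genes of the 34 were called with RAS, in the knockout, in the wild type and mutant knock-in against the knockout, in mutant against wild type, and in the wild type and mutant knock-in against senescent control.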
